A study of Homo sapiens with 20 samples.

Results

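The genes described here are 56 mRNAs whose proteins carry out mitosis. They were listed by name for their roles at the kinetochore, in the spindle checkpoint, in chromosome condensation, in anaphase and in cytokinesis. Mitotic kinesins other than the kinetochore motor CENPE, and cyclins, were left out of the list. The list was chosen with earlier results of these data known. All 56 were measured, each by 1 transcript cluster, among the 21448 transcript clusters of the array that were tested.

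In mitosis, kinetochores assembled on centromeric chromatin attach each chromosome to spindle microtubules, and the spindle checkpoint holds back the anaphase-promoting complex until every chromosome is attached. The complex then marks securin and mitotic cyclins for destruction, separase opens the rings that hold sister chromatids together, and the contractile ring divides the cell. mRNAs for these proteins are made mainly in G2 and mitosis, when B-MYB and FOXM1 act through the MuvB complex at promoters that carry a cell cycle genes homology region (CHR). In quiescent cells the same promoters are held down by the DREAM complex.

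BE(2)-C is an established human neuroblastoma line with amplified MYCN. Its cells were transfected for 48 h with lncNB1 siRNA-1, lncNB1 siRNA-2 or control siRNA, where lncNB1 is a long noncoding RNA, and cycloheximide was used to hold ribosomes on their mRNAs before sucrose gradient fractionation. RNA of heavy polysomes (mRNA with many ribosomes) and of light polysomes (mRNA with few) was hybridized to Clariom S arrays, with 3 arrays for siRNA-1, 3 for siRNA-2 and 4 for control in each fraction. Replicates are numbered 1, 2 and 4 for siRNA-1, 1, 2 and 3 for siRNA-2 and 1 to 4 for control. Values are listed in that order, so the third siRNA-1 and siRNA-2 values are not of the same replicate number. All groups are of the same cell line, each knockdown group rests on 1 siRNA, and how far lncNB1 itself fell was not analysed here.

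Promoters were read to see what the members share in sequence. RefSeq promoters on GRCh38.p14, of 250 bases before to 50 bases after a transcription start, were matched by symbol for 45 of the 56 genes, with 60 promoters, since some genes have several starts. A CHR (TTTGAA or TTCGAA on either strand, so that TTCAAA is also counted) stood in 39 of the 60, or 65%, against 16.4% of all 35116 promoters in the table. A relaxed CHR (TTTAAA) stood in 21.7%, against 12.2% of all promoters. A CCAAT box (CCAAT or ATTGG), bound by NF-Y, stood in 66.7%, against 34.6% of all promoters. An E2F motif, searched on either strand as TTCCCGC, further as TTCGCGC, further as TTGCCGC and further as TTGGCGC, stood in 31.7%, against 13% of all promoters. Matches may overlap, as CHR and CCAAT do in TTTGAATTGG, and a match of letters is not a measured site.

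The promoters below show the 100 bases before and the first 6 bases of the transcript for genes whose values are given further on, chosen to show where CHR letters stand near the start. Of the 16 genes given array by array that have a promoter in the table, all 7 with a CHR in this window are shown, with CKAP2 for the 9 without one. A CHR stood in this window in 38.3% of the members' promoters, against 5.23% of all promoters. Each runs 5′ to 3′ in the direction of the gene, with capitals for CHR and CCAAT matches.
CEP55, chr10:93496512-93496617, plus strand: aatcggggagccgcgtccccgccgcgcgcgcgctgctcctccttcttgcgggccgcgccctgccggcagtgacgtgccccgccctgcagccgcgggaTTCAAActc
SGO1, chr3:20186201-20186306, minus strand: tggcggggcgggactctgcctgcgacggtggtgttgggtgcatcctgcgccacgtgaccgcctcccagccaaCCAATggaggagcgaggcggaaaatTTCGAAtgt
CDCA3, chr12:6851281-6851386, minus strand: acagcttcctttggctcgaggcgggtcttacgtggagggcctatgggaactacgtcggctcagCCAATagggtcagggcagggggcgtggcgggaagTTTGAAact
SPC25, chr2:168890425-168890530, minus strand: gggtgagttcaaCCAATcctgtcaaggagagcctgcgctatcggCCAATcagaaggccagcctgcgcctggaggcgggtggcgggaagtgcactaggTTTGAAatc
MKI67, chr10:128126418-128126523, minus strand: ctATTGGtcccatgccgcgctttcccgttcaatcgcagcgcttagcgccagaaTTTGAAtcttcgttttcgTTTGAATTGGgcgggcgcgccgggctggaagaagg
CKAP2L, chr2:112764604-112764709, minus strand: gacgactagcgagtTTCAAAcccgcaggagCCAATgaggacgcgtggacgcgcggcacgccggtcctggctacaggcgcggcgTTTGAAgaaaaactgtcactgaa
CDC20, chr1:43358881-43358986, plus strand: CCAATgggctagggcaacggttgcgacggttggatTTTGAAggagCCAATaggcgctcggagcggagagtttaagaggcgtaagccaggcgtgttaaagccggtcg
CKAP2, chr13:52455888-52455993, plus strand: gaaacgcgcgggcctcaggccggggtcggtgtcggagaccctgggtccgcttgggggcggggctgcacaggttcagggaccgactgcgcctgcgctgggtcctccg
In CEP55, SGO1, CDCA3 and SPC25 the CHR begins 3 bases before the start and runs across it. MKI67 and CKAP2L each hold 2 in this window, and in MKI67 the one nearer the start runs into a CCAAT box. CDC20 holds its CHR between a pair of CCAAT boxes, and CKAP2 holds neither motif in these letters.

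The place of the CHR letters was counted next. In the 25 bases before it, a CHR began in 25% of the members' promoters, against 1% of promoters of protein-coding genes.

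**Figure D1:**
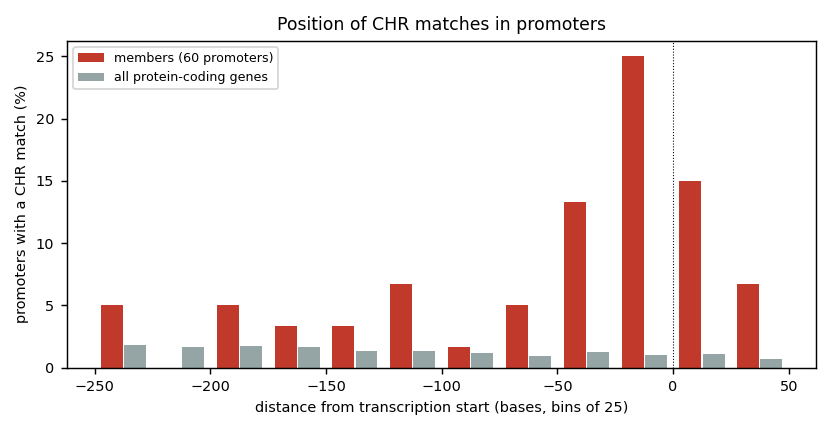
Bars give the percentage of promoters with a CHR match that begins in each 25-base bin, by distance from the transcription start, for the 60 promoters of the mitotic genes (red) and for all protein-coding genes (grey). The red bars are highest just before the start, at 25%, where the grey bar is at 1%.

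Values are log2 array signals, and a difference of log2 signals is called lower or higher where limma gave an adjusted p under 0.05 over all 21448 clusters. Array medians ranged from 6.58 to 6.68 over the 20 arrays, so each value is relative to the other mRNAs of its array. The adrenergic markers MYCN, GATA3, HAND2, PHOX2A and ISL1 stood at the 88.3rd to 99.9th percentile of all clusters, DBH at the 79.8th and TH at the 60.8th. Markers of Schwann cells, fibroblasts, leukocytes and endothelial cells stood between the 2.71st (CDH19) and the 77.9th percentile (PDGFRB). Of these, PDGFRB, COL1A2 (76.9th) and SOX10 (61.8th) stood above TH. Over the 7 adrenergic markers measured, the mean log2 signal of an array lay between 9.15 and 9.47 with siRNA-1, 9.73 and 9.78 with siRNA-2, and 9.49 and 9.79 with control in heavy polysomes. In light polysomes it lay between 8.89 and 9.05 with siRNA-1, 9.27 and 9.43 with siRNA-2, and 9.32 and 9.39 with control. HAND2 and ISL1 were called lower with siRNA-1 in both fractions, and no adrenergic marker was called with siRNA-2. Of 16 measured markers of Schwann cells, fibroblasts, leukocytes and endothelial cells, DCN was called with siRNA-1, at 0.90 (log2, heavy) and 0.70 (light) above control, and the part of these marker changes in the results below was not tested.

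With siRNA-1, mitotic mRNAs were lower than with control in both fractions. In light polysomes 51 of the 56 were called lower and 0 higher, where 6.32% of all clusters were called lower and 5.27% higher. In heavy polysomes 30 were called lower and 0 higher, against 3.23% and 5.68% of all clusters. With replicate number as a block in the fit, 44 were called lower in heavy polysomes, against 6.7% of all clusters. ARHGEF39, MASTL and OIP5 also stand in the study's own list of mRNAs lowered in these heavy arrays, so for them the direction is not independent evidence. Since the 56 were chosen with earlier results of these data known, the contrast of these counts with all clusters is a description. The median difference from control over the 56 was -0.76 on the log2 scale in light polysomes and -0.60 in heavy polysomes, while the median over all clusters was 0.00 in both. In these bulk samples, fewer cells in G2 and mitosis and less mRNA per cell cannot be told apart.

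Single arrays showed the same order. The median of the 56 genes, each set against its control mean, was -0.69, -0.82 and -0.76 in the siRNA-1 light arrays, against 0.02, -0.07 and 0.03 in the siRNA-2 light arrays and -0.00, -0.01, 0.04 and 0.01 in the control light arrays. In heavy polysomes it was -0.70, -0.67 and -0.46 with siRNA-1, against -0.05, -0.01 and 0.12 with siRNA-2 and -0.20, -0.07, 0.09 and 0.17 with control. The control arrays spread more in heavy than in light polysomes, and no siRNA-1 array overlapped a control or siRNA-2 array in either fraction.

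**Figure D2:**
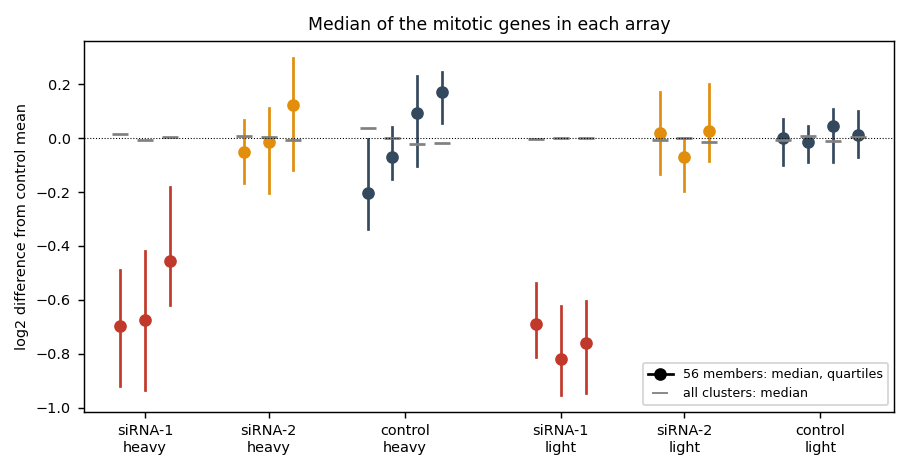
Each point is 1 array, plotted as the median over the 56 mitotic genes of the log2 difference from the control mean of its fraction, with bars from the lower to the upper quartile and grey dashes for the median of all clusters. The siRNA-1 arrays lie between -0.82 and -0.46, and the siRNA-2 and control arrays between -0.20 and 0.17.

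Taken gene by gene, the siRNA-1 light arrays were all below the control light arrays for 52 of the 56 genes and all above for 0, against 11% and 9.5% of all clusters. In heavy polysomes the arrays did not overlap for 34 genes, all lower with siRNA-1, where 7.6% of all clusters were lower and 9.88% higher in this way. The 28 genes called lower in both fractions came from each of the role groups that follow. A further 2 genes, ESPL1 and SPC24, were called in heavy polysomes alone, and 23 in light polysomes alone. Leaving out siRNA-1 replicate 2 reduced the heavy count to 16 genes, with 1.24% of all clusters then called lower.

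**Figure D3:**
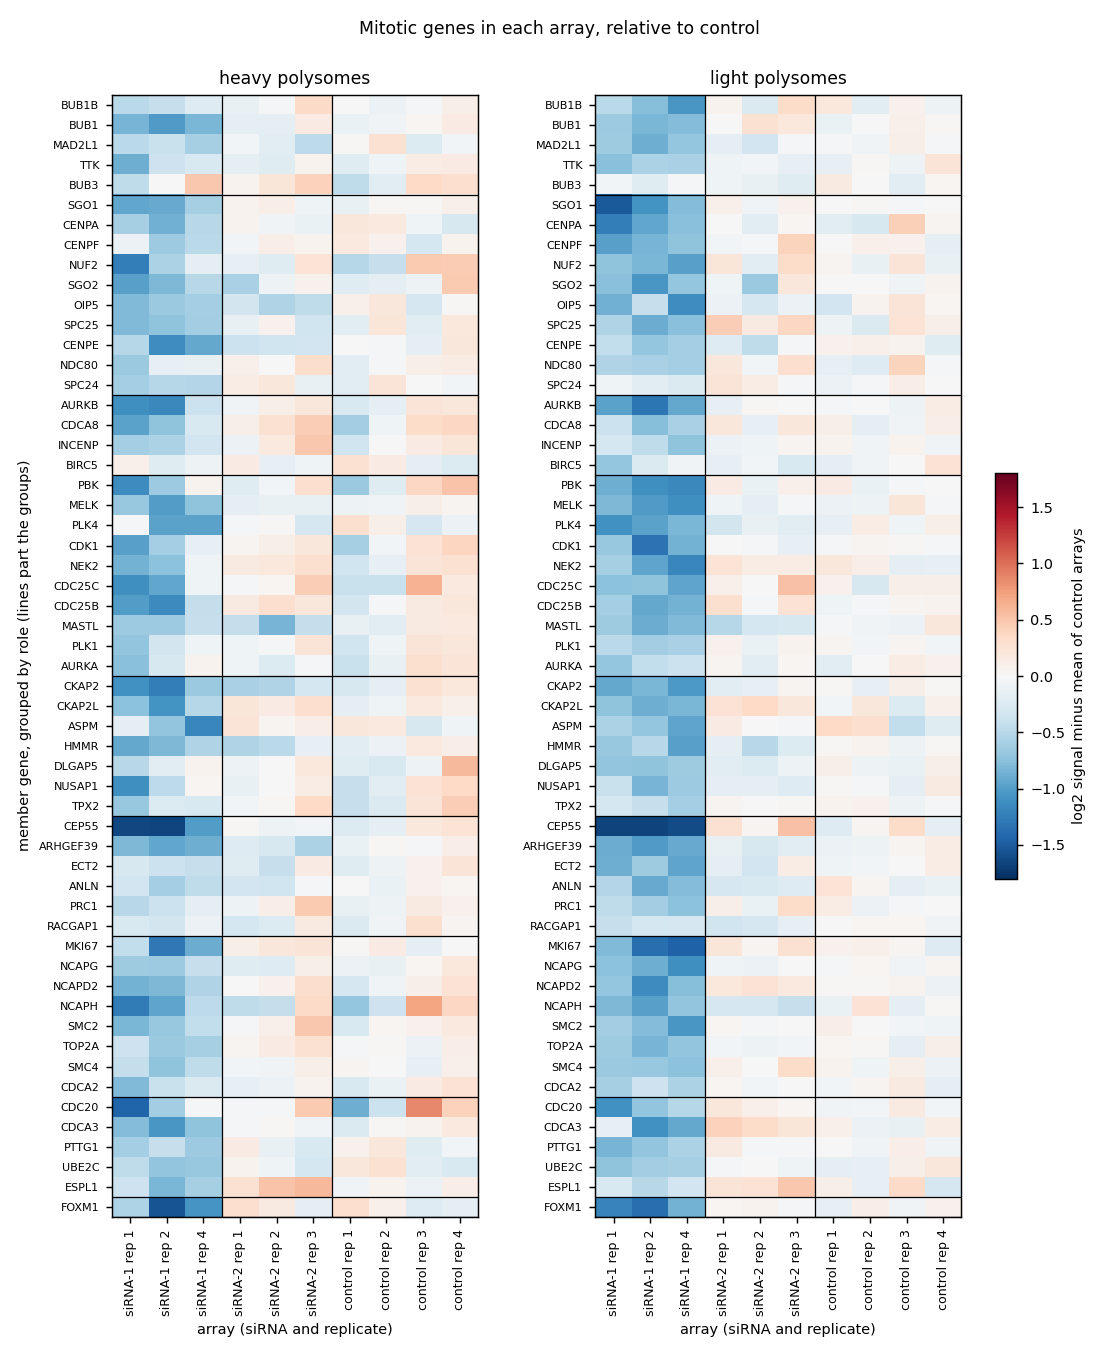
Rows are the 56 genes in their role groups, from the top the spindle checkpoint, kinetochore and centromere, chromosomal passenger complex, kinases and phosphatases, spindle proteins, cytokinesis, condensin and chromosomes, anaphase and FOXM1, and columns are the arrays. Colour is the log2 signal minus the control mean of the fraction. The siRNA-1 columns are blue for 56 genes in each light array and for 51 to 56 genes in each heavy array.

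The spindle checkpoint group held 5 genes, of which 4 were called lower with siRNA-1 in light and 2 in heavy polysomes. BUB1, a kinase that recruits checkpoint proteins to the kinetochore, had log2 signals of 7.42, 7.23 and 7.44 in the siRNA-1 heavy arrays, against 8.09, 8.09 and 8.40 with siRNA-2 and 8.14, 8.19, 8.29 and 8.39 with control. In light polysomes its signals were 7.48, 7.31 and 7.35 with siRNA-1, against 8.12, 8.40 and 8.32 with siRNA-2 and 8.01, 8.14, 8.22 and 8.15 with control. The siRNA-1 arrays were below all others in both fractions, and BUB1 fell by 0.89 in heavy polysomes (SE 0.12, limma adjusted p = 0.000956) and by 0.75 in light polysomes (SE 0.12, adjusted p = 0.000773). MAD2L1, which binds CDC20 to block the anaphase-promoting complex, fell by 0.50 and 0.74 on the log2 scale in heavy and light polysomes. BUB1B (BUBR1) and TTK (MPS1, the kinase that starts the checkpoint signal) fell by 0.77 and 0.64 in light polysomes, with -0.38 and -0.51 in heavy polysomes, not called.

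BUB3, which anchors BUB1 and BUBR1 at kinetochores and also has roles outside mitosis, differed from control by 0.01 in heavy polysomes (95% interval -0.49 to 0.50) and by -0.10 in light polysomes (-0.36 to 0.16). It was not called in either fraction, and its siRNA-1 difference in light polysomes was the smallest of the 56.

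Among the 10 kinetochore and centromere genes, 9 were called lower with siRNA-1 in light polysomes and 7 in heavy polysomes. SGO1 (shugoshin), which protects cohesin at centromeres until anaphase, had 6.95, 6.97 and 7.29 in the siRNA-1 heavy arrays, against 7.94, 8.001 and 7.80 with siRNA-2 and 7.74, 7.90, 7.90 and 7.98 with control. Its light signals were 6.79, 7.21 and 7.52 with siRNA-1, against 8.38, 8.24 and 8.37 with siRNA-2 and 8.31, 8.31, 8.27 and 8.29 with control. The groups did not overlap, siRNA-2 lay beside control, and SGO1 fell by 0.81 in heavy (adjusted p = 0.00147) and 1.12 in light polysomes (adjusted p = 0.000199). The centromeric histone CENPA fell by 0.65 and 0.97, the kinetochore motor CENPE by 0.85 and 0.59, SGO2 by 0.76 and 0.83, and OIP5, which helps load CENPA, by 0.69 and 0.80, each in heavy and then in light polysomes.

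The 4 subunits of the NDC80 complex, which binds microtubule ends at the kinetochore, did not all pass the test in both fractions. SPC25 had 7.18, 7.25 and 7.35 in siRNA-1 heavy arrays, against 7.84, 8.06 and 7.62 with siRNA-2 and 7.79, 8.19, 7.77 and 8.16 with control. In light polysomes SPC25 had 6.59, 6.24 and 6.39 with siRNA-1, against 7.58, 7.30 and 7.50 with siRNA-2 and 7.04, 6.88, 7.38 and 7.24 with control. SPC25 fell by 0.72 and 0.73 against control, and by 1.05 in light polysomes against siRNA-2, where the siRNA-2 arrays were among the highest. NUF2 had 7.0, 6.90 and 6.74 in siRNA-1 light arrays, against 7.94, 7.52 and 8.05 with siRNA-2 and 7.77, 7.58, 7.94 and 7.58 with control, a fall of 0.84 from control (adjusted p = 0.00166). In heavy polysomes NUF2 had 7.41, 8.09 and 8.48 with siRNA-1, against 8.51, 8.45 and 8.90 with siRNA-2 and 8.15, 8.25, 9.13 and 9.12 with control. These heavy groups overlapped, and the difference of -0.67 was not called (adjusted p = 0.188). With replicate number as a block in limma, the heavy difference of NUF2 was -0.56 and was called (adjusted p = 0.0248). That was the 1 call in 19 alternatives, over which the adjusted p reached 0.48. NDC80 was called in light polysomes (-0.58) and not in heavy polysomes (-0.32), and SPC24 in heavy polysomes (-0.55) and not in light polysomes (-0.18).

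The chromosomal passenger complex corrects faulty attachments and has 4 members. Its kinase AURKB had 8.42, 8.36 and 9.14 in siRNA-1 heavy arrays, against 9.46, 9.62 and 9.73 with siRNA-2 and 9.25, 9.36, 9.75 and 9.73 with control. In light polysomes AURKB had 8.25, 7.91 and 8.29 with siRNA-1, against 9.07, 9.23 and 9.20 with siRNA-2 and 9.17, 9.20, 9.12 and 9.35 with control. Replicate 4 was the highest siRNA-1 array in both fractions yet stayed below all others. AURKB fell by 0.88 in heavy (adjusted p = 0.0117) and 1.06 in light polysomes (adjusted p = 0.000105), and the heavy call was lost without siRNA-1 replicate 2 (adjusted p = 0.0756, the highest of 19 alternatives, which reached down to 0.000854). INCENP and CDCA8 (borealin) fell by 0.50 and 0.58 in light polysomes and were not called in heavy polysomes, at -0.51 and -0.65.

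BIRC5 (survivin), the fourth subunit, was not called in either fraction. It had 8.67, 8.36 and 8.49 in siRNA-1 heavy arrays, against 8.72, 8.43 and 8.49 with siRNA-2 and 8.85, 8.72, 8.41 and 8.33 with control. In light polysomes it had 8.98, 9.41 and 9.61 with siRNA-1, against 9.53, 9.62 and 9.40 with siRNA-2 and 9.49, 9.60, 9.66 and 9.93 with control. The groups overlapped in both fractions, and it differed from control by -0.07 in heavy and -0.34 in light polysomes (adjusted p = 0.856 and 0.197).

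All 10 mitotic kinases and phosphatases were called lower with siRNA-1 in light polysomes, and 3 in heavy polysomes. MELK, a kinase abundant in dividing cells, had 9.40, 9.08 and 9.37 in siRNA-1 heavy arrays, against 9.92, 9.95 and 9.95 with siRNA-2 and 10.00, 10.02, 10.20 and 10.13 with control. Its light signals were 9.19, 8.97 and 8.89 with siRNA-1, against 9.92, 9.81 and 9.97 with siRNA-2 and 9.89, 9.91, 10.21 and 9.97 with control. MELK fell by 0.80 and 0.98, with no overlap. PBK, a kinase active in mitosis, had 7.74, 7.51 and 7.46 in siRNA-1 light arrays, against 8.77, 8.50 and 8.71 with siRNA-2 and 8.78, 8.50, 8.59 and 8.63 with control. In heavy polysomes PBK had 8.42, 8.90 and 9.61 with siRNA-1, against 9.34, 9.51 and 9.85 with siRNA-2 and 8.89, 9.34, 9.93 and 10.07 with control. PBK fell by 1.05 in light polysomes (adjusted p = 0.000105), while its heavy arrays overlapped and its heavy difference of -0.58 was not called (adjusted p = 0.289). Each siRNA-1 heavy array of PBK was below the control heavy array of the same number. With replicate number as a block in limma, the heavy difference was -0.50 and was called (adjusted p = 0.0142). That was the 1 call in 19 alternatives, over which the adjusted p reached 0.625.

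PLK4, which starts centriole duplication, had 8.32, 8.46 and 8.59 in siRNA-1 light arrays, against 9.09, 9.28 and 9.21 with siRNA-2 and 9.27, 9.54, 9.33 and 9.52 with control. In heavy polysomes PLK4 had 8.48, 7.55 and 7.55 with siRNA-1, against 8.50, 8.53 and 8.21 with siRNA-2 and 8.81, 8.62, 8.22 and 8.41 with control. It fell by 0.96 in light polysomes, and siRNA-1 replicate 1 lay within the control range in heavy polysomes, where the difference of -0.65 was not called (adjusted p = 0.0824). Without that array the heavy difference was -0.96 and was called (adjusted p = 0.00352). With replicate number as a block in limma it was -0.73 and was called (adjusted p = 0.00854). The heavy difference of PLK4 was called in 5 of 19 alternatives, over which the limma adjusted p reached 0.312. CDK1, the kinase that drives entry into mitosis, fell by 0.95 in light polysomes, NEK2 (centrosome separation) by 0.91, PLK1 by 0.56 and AURKA (spindle poles) by 0.51, and none of these 4 was called in heavy polysomes, at -0.58, -0.55, -0.37 and -0.33. CDC25B, a phosphatase that activates CDK1, fell by 0.86 and 0.80 in heavy and light polysomes, and CDC25C by 0.81 in light polysomes, with -0.71 in heavy polysomes, not called.

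MASTL (Greatwall), the kinase that keeps the phosphatase PP2A inhibited during mitosis, was low with both siRNAs. It had 7.78, 7.77 and 8.02 in siRNA-1 heavy arrays, against 8.30, 8.23, 8.59 and 8.61 with control, and the siRNA-2 heavy arrays had 7.997, 7.59 and 8.004 against the same control arrays. In light polysomes it had 7.82, 7.57 and 7.67 with siRNA-1 and 7.94, 8.15 and 8.18 with siRNA-2, against 8.43, 8.39, 8.36 and 8.65 with control. Every siRNA array was below every control array. MASTL fell by 0.57 in heavy polysomes (adjusted p = 0.0269) and 0.77 in light polysomes (adjusted p = 0.000909) with siRNA-1, whereas the siRNA-2 differences of -0.57 and -0.37 were not called (adjusted p = 0.15 and 0.292). In heavy polysomes the siRNA-2 difference was called in 3 of 19 alternatives (adjusted p from 0.0352 to 0.688), namely under array weights, in 1 fit of all 20 arrays and with replicate number as a block. The siRNA-1 heavy call was lost in 6 of 19 alternatives, among them leaving out siRNA-1 replicate 1 or 2 or control replicate 3 or 4 (adjusted p from 0.00675 to 0.118 over the alternatives).

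The 7 spindle and microtubule proteins were all called lower with siRNA-1 in light polysomes, and 3 of them in heavy polysomes. CKAP2, a microtubule-stabilizing spindle protein, had 7.34, 7.19 and 7.76 in siRNA-1 heavy arrays, against 7.85, 7.88 and 8.10 with siRNA-2 and 8.14, 8.25, 8.70 and 8.61 with control. In light polysomes CKAP2 had 7.14, 7.24 and 7.02 with siRNA-1, against 7.86, 7.92 and 8.10 with siRNA-2 and 8.08, 7.91, 8.17 and 8.08 with control. CKAP2 fell by 1.00 in heavy (adjusted p = 0.00297) and 0.93 in light polysomes (adjusted p = 0.000187), and its siRNA-2 heavy arrays lay between the siRNA-1 and control arrays, at -0.48 from control, not called (adjusted p = 0.371). Its relative CKAP2L had 7.37, 7.03 and 7.59 in siRNA-1 heavy arrays, against 8.33, 8.25 and 8.41 with siRNA-2 and 7.92, 8.03, 8.28 and 8.20 with control. CKAP2L light signals were 7.76, 7.61 and 7.66 with siRNA-1, against 8.75, 8.84 and 8.69 with siRNA-2 and 8.44, 8.70, 8.24 and 8.57 with control. CKAP2L fell by 0.78 and 0.81, and its siRNA-2 arrays were at the upper end of the control arrays or above them. HMMR fell by 0.76 and 0.72 in heavy and light polysomes. TPX2, which activates AURKA on the spindle, DLGAP5, NUSAP1 and ASPM, a spindle pole protein, fell by 0.44 to 0.73 in light polysomes and were not called in heavy polysomes, at -0.40, -0.21, -0.51 and -0.68.

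The largest difference of the 56 in each fraction was that of CEP55, which recruits the abscission machinery to the midbody. CEP55 had 6.55, 6.54 and 7.18 in siRNA-1 heavy arrays, against 8.21, 8.09 and 8.14 with siRNA-2 and 7.94, 8.01, 8.37 and 8.43 with control. Its light signals were 5.96, 5.95 and 6.01 with siRNA-1, against 7.90, 7.67 and 8.14 with siRNA-2 and 7.39, 7.67, 7.96 and 7.46 with control. CEP55 was 2.70-fold lower in heavy polysomes (-1.43, SE 0.17, adjusted p = 0.000437) and 3.14-fold lower in light polysomes (-1.65, SE 0.15, adjusted p = 1.37e-05).

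Of the 6 cytokinesis genes, 5 were called lower with siRNA-1 in light and 3 in heavy polysomes. ECT2, the exchange factor that activates RhoA at the cleavage plane, had 7.40, 7.64 and 7.33 in siRNA-1 light arrays, against 8.13, 7.94 and 8.41 with siRNA-2 and 8.20, 8.23, 8.28 and 8.42 with control. In heavy polysomes ECT2 had 7.86, 7.76 and 7.73 with siRNA-1, against 7.93, 7.73 and 8.29 with siRNA-2 and 7.94, 8.05, 8.22 and 8.38 with control. ECT2 fell by 0.83 in light polysomes (adjusted p = 0.00101), and its heavy difference of -0.37 was not called (adjusted p = 0.172). The contractile ring scaffold ANLN (anillin) fell by 0.47 and 0.74 and ARHGEF39 by 0.88 and 0.94 in heavy and light polysomes. PRC1, which bundles microtubules of the central spindle, fell by 0.61 in light polysomes. RACGAP1, the partner of ECT2 at the central spindle, was not called in either fraction, at -0.24 and -0.35.

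The 8 condensin and mitotic chromosome genes were all called lower in light polysomes, and 6 in heavy polysomes. MKI67 (Ki-67), which coats mitotic chromosomes, had 9.37, 8.53 and 8.93 in siRNA-1 heavy arrays, against 9.92, 10.02 and 10.05 with siRNA-2 and 9.83, 9.96, 9.65 and 9.81 with control. In light polysomes MKI67 had 8.54, 7.97 and 7.86 with siRNA-1, against 9.55, 9.38 and 9.60 with siRNA-2 and 9.40, 9.42, 9.38 and 9.10 with control. MKI67 fell by 0.87 in heavy (adjusted p = 0.00583) and 1.20 in light polysomes (adjusted p = 0.000195), with siRNA-1 replicate 1 nearest to control in both. The condensin ATPases SMC2 and SMC4 fell by 0.65 and 0.54 in heavy and by 0.82 and 0.70 in light polysomes. The condensin I subunits NCAPD2 and NCAPG fell by 0.73 and 0.57 in heavy and by 0.87 and 0.91 in light polysomes. NCAPH fell by 0.83 in light polysomes and stood at -0.89 in heavy polysomes, not called (adjusted p = 0.103). TOP2A, which untangles sister DNA, fell by 0.55 and 0.73, and CDCA2 by 0.51 in light polysomes.

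In the anaphase group, 4 of 5 genes were called lower in each fraction. PTTG1 (securin), the inhibitor of separase, had 8.91, 9.12 and 8.88 in siRNA-1 heavy arrays, against 9.68, 9.40 and 9.26 with siRNA-2 and 9.61, 9.73, 9.31 and 9.48 with control. Its light signals were 8.81, 8.94 and 9.08 with siRNA-1, against 9.81, 9.61 and 9.61 with siRNA-2 and 9.65, 9.58, 9.77 and 9.58 with control. PTTG1 fell by 0.56 and 0.70, and the heavy call was lost in 5 of 19 alternatives, among them leaving out siRNA-1 replicate 1, siRNA-1 replicate 4 or control replicate 2 (adjusted p from 0.0038 to 0.0796 over the alternatives). CDCA3, a ubiquitin ligase adaptor, had 6.72, 6.46 and 6.78 in siRNA-1 heavy arrays, against 7.47, 7.53 and 7.44 with siRNA-2 and 7.25, 7.52, 7.56 and 7.68 with control. In light polysomes CDCA3 had 7.23, 6.28 and 6.45 with siRNA-1, against 7.80, 7.71 and 7.60 with siRNA-2 and 7.47, 7.28, 7.25 and 7.52 with control. CDCA3 fell by 0.85 and 0.72, with siRNA-1 replicate 1 just under the lowest control array in light polysomes, where leaving out siRNA-1 replicate 2, siRNA-1 replicate 4 or control replicate 4 lost the call (adjusted p from 0.000474 to 0.108 over 19 alternatives). UBE2C, the ubiquitin-conjugating enzyme of the anaphase-promoting complex, fell by 0.61 and 0.65.

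CDC20, the activator of the anaphase-promoting complex, had 8.07, 8.88 and 9.47 in siRNA-1 heavy arrays, against 9.46, 9.49 and 9.97 with siRNA-2 and 8.62, 9.11, 10.37 and 9.92 with control. In light polysomes CDC20 had 7.50, 7.88 and 8.07 with siRNA-1, against 8.79, 8.67 and 8.62 with siRNA-2 and 8.52, 8.53, 8.75 and 8.54 with control. The heavy control arrays of CDC20 spanned more than its mean difference, which was not called (-0.70, adjusted p = 0.322), while in light polysomes CDC20 fell by 0.77 (adjusted p = 0.00208). That light call was lost where all 20 arrays shared 1 estimate of spread (adjusted p = 0.111, the highest of 19 alternatives, which reached down to 0.000702). ESPL1 (separase) fell by 0.60 in heavy polysomes and was not called in light polysomes, at -0.37.

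FOXM1, the transcription factor that activates many of these genes in G2, had 9.72, 8.72 and 9.21 in siRNA-1 heavy arrays, against 10.58, 10.44 and 10.12 with siRNA-2 and 10.58, 10.37, 10.04 and 10.12 with control. In light polysomes FOXM1 had 9.98, 9.82 and 10.32 with siRNA-1, against 11.21, 11.23 and 11.13 with siRNA-2 and 11.03, 11.30, 11.11 and 11.26 with control. The siRNA-1 arrays were below all others, and FOXM1 was 2.08-fold lower in heavy (adjusted p = 0.00742) and 2.20-fold lower in light polysomes (adjusted p = 9.69e-05).

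With siRNA-2, 0 of the 56 genes were called in either fraction by limma. All clusters were called lower and higher at 0.247% and 0.168% in heavy polysomes and at 0.219% and 0.191% in light polysomes. In heavy polysomes, where same-numbered siRNA-2 and control arrays deviated together, the replicate number as a block gave 1 call, MASTL (lower, adjusted p = 0.0354), with 1.58% of all clusters then called lower. Without the block, 7 genes in each fraction had an unadjusted p under 0.05. The share of all clusters at this threshold is not given here, and unchanged genes also pass it. The genes are therefore listed without being read as siRNA-2 effects. In heavy polysomes these were MASTL, CKAP2, OIP5, HMMR, ARHGEF39 and CENPE, between -0.57 and -0.36, and ESPL1, at 0.46. In light polysomes they were MASTL, NCAPH, HMMR and RACGAP1, between -0.37 and -0.27, and SPC25, ESPL1 and CKAP2L, between 0.27 and 0.33. The median over the 56 genes was -0.00 in both fractions, and the 95% intervals of single genes reached -0.89 and 0.95 in heavy and -0.64 and 0.71 in light polysomes. The siRNA-2 arrays were all below control for 6 genes and all above for 1 gene in heavy polysomes, where 5.06% and 4.68% of all clusters were. In light polysomes this held for 6 and 2 genes, against 5.56% and 5.19% of all clusters.

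**Figure D4:**
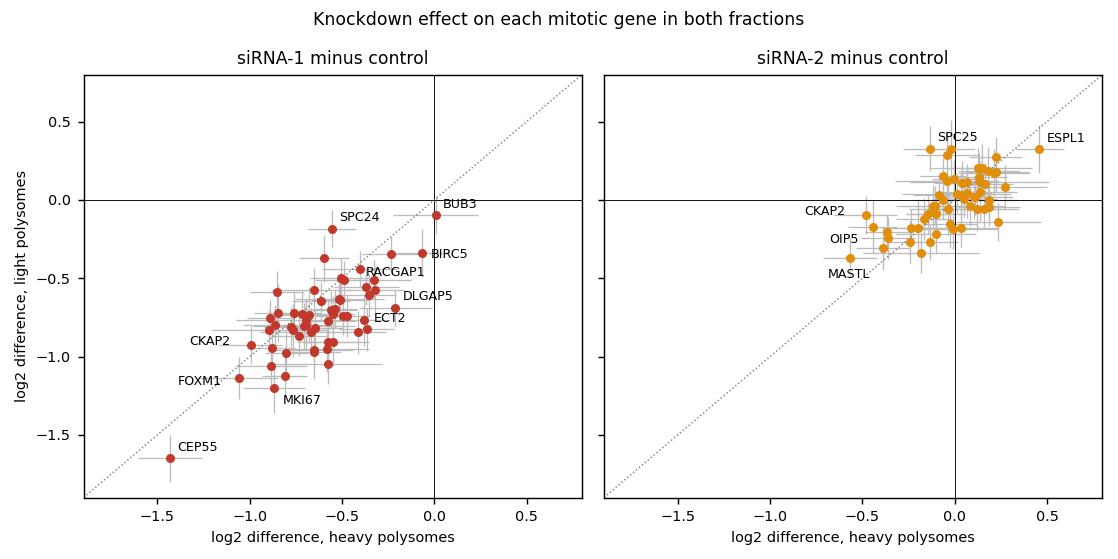
Each point is 1 of the 56 genes, with its log2 difference from control in heavy polysomes on the horizontal and in light polysomes on the vertical axis, siRNA-1 on the left, siRNA-2 on the right, bars of 1 standard error and a dotted line of equal values. With siRNA-1, 55 genes lie below 0 on both axes and CEP55 is farthest out (-1.43 and -1.65), whereas with siRNA-2 the genes surround 0.

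The siRNAs were also set against each other, which tests the difference between their effects directly, since the control arrays cancel. In light polysomes 49 genes were lower with siRNA-1 than with siRNA-2 and 0 higher, where 6.68% and 5.61% of all clusters were called, and the median difference was -0.74. In heavy polysomes 23 were lower and 0 higher, against 3.26% and 5.49% of all clusters, with a median of -0.56. Of the genes lower than control, 48 of 51 in light and 19 of 30 in heavy polysomes were also lower than with siRNA-2. CEP55 differed most between the siRNAs, by -1.93 in light and -1.39 in heavy polysomes. MASTL differed between them by -0.40 in light polysomes (adjusted p = 0.0641) and -0.01 in heavy polysomes, neither called, and ECT2 by -0.70 in light polysomes (adjusted p = 0.00491). The siRNA-1 arrays were all below the siRNA-2 arrays for 52 genes in light and 41 in heavy polysomes, against 14.6% and 11.5% of all clusters. The heavy count was 14 without siRNA-1 replicate 2, and also 14 without siRNA-2 replicate 2. Of all clusters, 1.3% and 1.33% were then called lower, in place of 3.26%.

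Comparison of heavy with light polysomes in control cells asked where each mRNA lay relative to the others of the array, with heavy and light arrays of the same number taken as 1 transfection. Of the 56 genes, 17 were called higher in heavy polysomes and 7 lower, where 14.5% and 12.8% of all clusters were called, and the median was 0.24 against -0.02 over all clusters. NUF2 had heavy minus light differences of 0.38, 0.67, 1.19 and 1.54 in the 4 control transfections. PBK had 0.11, 0.84, 1.34 and 1.44. CDC20 had 0.10, 0.58, 1.62 and 1.38. For all 3 the smallest difference was that of replicate 1, and the means were 0.94 (adjusted p = 0.00248), 0.93 (0.00547) and 0.92 (0.00432).

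At the other end, BIRC5 had heavy minus light differences of -0.64, -0.88, -1.25 and -1.60, PLK4 had -0.46, -0.92, -1.12 and -1.11, and FOXM1 had -0.45, -0.93, -1.08 and -1.14. These mRNAs lay toward light polysomes in every transfection, with means of -1.09 (adjusted p = 0.000233), -0.90 (0.00139) and -0.90 (0.000609). The other 4 genes called lower were CENPA and UBE2C, both at -0.80, SGO1 at -0.42 and CKAP2L at -0.38. Within the chromosomal passenger complex, BIRC5 was thus called lower in heavy polysomes, and INCENP and CDCA8 were called higher. All 4 transfections had the same sign for 22 genes toward heavy and 9 toward light polysomes, against 20.2% and 20.3% of all clusters. Without control replicate 4, 14 of the genes were called in place of 24, and the calls of CEP55, MKI67 and PBK were among those lost. Calls over all clusters fell as well, from 2751 lower and 3113 higher to 1796 and 1841. The calls of SGO1 and CKAP2L were lost without control replicate 1, and that of CKAP2L also without control replicate 2 or 4 or any siRNA-2 replicate. The fractions were least separated in replicate 1, where the SD of the heavy minus light difference over all clusters was 0.455 with siRNA-1, 0.398 with siRNA-2 and 0.362 with control, and most in replicate 4, at 0.645 with siRNA-1 and 0.611 with control.

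**Figure D5:**
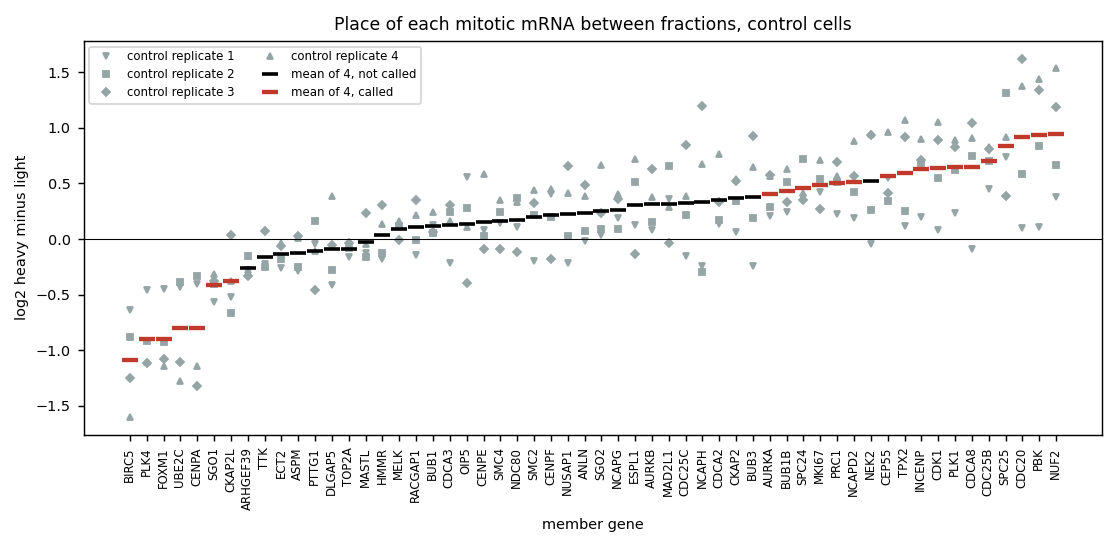
The vertical axis is the log2 heavy minus light difference in control cells for each of the 56 genes, in order of their mean. Symbols are the 4 transfections, and the dash is their mean, red where limma called it. The means run from -1.09 (BIRC5) to 0.94 (NUF2). Replicate 1 lies nearest to 0 for BIRC5, PLK4, FOXM1, CDC20, PBK and NUF2, but not for UBE2C, CENPA and SPC25, which are next to them.

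Whether knockdown moved these mRNAs between fractions was tested as the change of the heavy minus light difference. By limma 0 of the 56 genes were called with siRNA-1 and 0 with siRNA-2, where 0% of all clusters were called in each. At an unadjusted p under 0.05 there were 3 genes with siRNA-1 and 0 with siRNA-2. A share of about 0.05 of unchanged genes would also pass that threshold, so the 3 genes are not read as moved. With siRNA-1 the 3 were DLGAP5 (0.48), ECT2 (0.46, adjusted p = 0.831, the smallest of the 56) and SPC24 (-0.37). With siRNA-1 the median change over the 56 genes was 0.14, against 0.03 over all clusters. With siRNA-2 the median was -0.01. The 95% intervals of single genes reached from -0.80 to 1.20 with siRNA-1 and from -0.95 to 0.96 with siRNA-2, wide enough to hold changes as large as the median fall. Across the 56 genes the siRNA-1 differences in heavy and light polysomes correlated (r = 0.73). This is a description over genes, with fractions that were taken to be of the same transfections.

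Genes with related roles outside the list were counted in the same fits. Of 12 mitotic kinesins, 11 were called lower with siRNA-1 in each fraction, with KIF20B at -0.85 and -1.07 and the spindle motor KIF11 at -0.81 and -1.01 in heavy and light polysomes. The 4 mitotic cyclins were all called lower in light polysomes and 1 in heavy polysomes, with CCNA2 at -0.69 and -1.26 in heavy and light polysomes, and CCNB1, the partner of CDK1, at -0.99 in light polysomes. Of 14 proteins of the constitutive centromere network, which links CENPA chromatin to the outer kinetochore, 9 were called lower in heavy and 8 in light polysomes, CENPU (-0.64 and -1.02) and ITGB3BP (-0.77 and -1.11) among them. Of 12 further outer kinetochore and RZZ genes, 3 and 8 were called lower, with SKA1 at -0.95 and -1.06, and SKA3 at -0.82 in light polysomes. The cyclin and outer kinetochore lists had more calls in light than in heavy polysomes, as the 56 members had. The member medians spread more between heavy replicates (SD 0.134) than between light replicates (0.0512). A count of calls does not test the fractions against each other, and 0 of the 56 were called in the shift comparison.

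Calls among the other lists varied. Of 16 anaphase-promoting complex subunits, 0 were called lower with siRNA-1, and ANAPC13 was called higher in light polysomes (0.58). Of 12 cohesin genes, 2 were called lower in heavy and 4 in light polysomes, ESCO2 (-1.03 and -1.07) and CDCA5 (sororin, -0.48 and -1.05) in both. Of 3 condensin II subunits NCAPG2 was called, in light polysomes (-0.61). Of 10 augmin and gamma-tubulin ring genes, 1 was called lower in heavy and 3 in light polysomes, with TUBGCP3 (-0.57 and -0.71) in both and HAUS1 (-1.18) in light polysomes. Of 37 DNA replication genes, 19 were called lower in heavy and 27 in light polysomes, with the helicase subunit MCM6 at -1.13 and -1.28 and POLE2 at -1.07 in both.

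Regulators of these promoters were mixed. MYBL2 (B-MYB) fell by 0.77 in heavy and 1.06 in light polysomes with siRNA-1. It was 1 of 12 genes of the MuvB, B-MYB and DREAM list, of which 2 were called lower in heavy polysomes and 3 lower and 1 higher in light polysomes. The E2F partner TFDP1 fell by 0.81 in light polysomes, and TFDP2, named after its value was seen, rose by 0.52 there. E2F1 fell by 0.71 and 0.50, and MYCN by 0.43 in light polysomes, with -0.31 in heavy polysomes, not called. CDKN1A (p21), an inhibitor of cyclin-dependent kinases, rose by 1.04 in heavy (adjusted p = 0.0332) and 1.58 in light polysomes (adjusted p = 0.00495) with siRNA-2. With siRNA-1 CDKN1A stood at -0.32 and -0.69, not called, and the part of these regulators in the mitotic differences was not tested. Apart from CDKN1A, siRNA-2 called 1 gene of these lists, the anaphase-promoting complex subunit CDC26 in light polysomes (-1.07, adjusted p = 0.0216), named after its value was seen.

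The promoters shown at the start were set beside these differences. The 36 genes with a CHR in any of their 300-base promoters had median siRNA-1 differences of -0.65 in heavy and -0.77 in light polysomes, and the 9 genes without one had -0.80 and -0.83, with no test made.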

How the data were processed

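The deposited values are log2 signals, 1 per probe set, which the authors made from Clariom S arrays by robust multi-array averaging (RMA) in oligo. Background correction and quantile scaling within RMA make each value relative to the rest of its array, and total polysomal RNA was not measured. Versions R 3.5.3 and limma 3.38.3 come from the submitters' processing notes. The genome build, and whether both fractions were normalized in 1 run, are not given in the sources used here. Sample titles supplied groups and replicate numbers. The study states that the heavy polysome experiments were repeated, but neither it nor the labels say which arrays came from separate transfections, so p-values measure the spread between these samples, which may be technical, and the number of arrays limits the precision.

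Of 27189 probe sets, 21448 transcript clusters were tested and the other 5741 sets were not. Fits were made with limma 3.58.1 in R 4.3.3 (lmFit, eBayes), within the 10 arrays of a fraction, without a replicate block. Same-numbered arrays were checked for shared deviations from their group means. All pairs exceeded a correlation of 0.1 in siRNA-2 and control heavy arrays alone (0.189 to 0.426). For these the blocked value is given beside the result. Of the siRNA-1 and control heavy pairs, 2 of 3 exceeded it (0.0539 to 0.62). There the blocked count, and the blocked values of NUF2, PBK and PLK4, are given as well. Heavy minus light differences were fitted over 10 transfections. P-values were adjusted by Benjamini-Hochberg over all clusters, with a threshold of 0.05. The fits were first tested on simulated data. Genes were named through the platform annotation, which gave a symbol to 17709 clusters. The members and lists were chosen with earlier results of these data known.

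Values in every array were given for 19 members, by a rule. It took the smallest p of each role group in siRNA-1 minus control (both fractions) and in siRNA-1 minus siRNA-2 (light), the 3 largest and 3 smallest heavy minus light differences, and the smallest p of each siRNA-2 and each shift comparison. Up to 2 genes of each other list had the smallest p in siRNA-1 minus control. List members without a matching cluster were not analysed here.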

Additional observations from a re-analysis of the deposited data

Results flagged for a closer look

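For the 19 mitotic genes described array by array, the 4 control arrays of each fraction were checked for a value far from the others, and 2 of 38 such groups held one, where chance gives about 1 in 20. CDC20 in control light replicate 3 had a log2 signal of 8.75, with the other 3 control arrays between 8.52 and 8.54. MKI67 in control light replicate 4 had 9.10, with the others between 9.38 and 9.42. Both stayed above all siRNA-1 light arrays of their gene.

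The effects of siRNA-1 and siRNA-2 differed, by limma's test of siRNA-1 minus siRNA-2, for 23 of the 56 genes in heavy polysomes and 49 in light polysomes, all lower with siRNA-1.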

How the results depend on the processing

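The median differences of siRNA-1 from control and from siRNA-2, and of heavy minus light, kept their direction under every alternative run, while the siRNA-2 medians, near 0, lay between -0.05 and 0.06 in heavy and -0.03 and 0.03 in light polysomes. With the replicate number as a block, 44 mitotic genes were called lower with siRNA-1 than with control in heavy polysomes (30 without it). In light polysomes 51 were. Against siRNA-2, 42 were lower in heavy polysomes (23 without it), where 6.46% of all clusters were called lower (3.26% without it). With siRNA-2, MASTL was the 1 gene called lower in heavy polysomes (0 without it). Of all clusters, 1438 were called lower with siRNA-1 than with control in heavy polysomes (693 without it). NUF2, PBK and PLK4 gained a heavy siRNA-1 call with the block (adjusted p = 0.0248, 0.0142 and 0.00854). Of 8 same-numbered pairs of arrays, 6 in heavy polysomes (0.0195 to 0.62) and 4 in light polysomes (-0.104 to 0.404) correlated above 0.1 in their deviations from the group means, so most heavy pairs deviated together, while outside heavy siRNA-2 and control the numbers did not meet the rule for pairing. MASTL was also the 1 call with siRNA-2 in heavy polysomes under array weights and with all 20 arrays in 1 fit. With replicate 1 left out of every group, 32 genes were lower with siRNA-1 than with siRNA-2 in light polysomes (49 with it). Of all clusters, 3.04% were then called lower (6.68% with it). The median siRNA-1 minus control difference in light polysomes was -0.82. Heavy minus light calls numbered 15 of 24 where 1.5-fold was also asked. Over all clusters this left 1686 of 2751 lower and 1652 of 3113 higher calls.

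Leaving out 1 array or transfection at a time gave 16 to 35 heavy and 46 to 51 light calls for siRNA-1 against control, 14 to 25 heavy and 37 to 49 light calls against siRNA-2, and 14 to 27 calls for heavy minus light. The median of siRNA-1 minus siRNA-2 in light polysomes then ran from -0.82 to -0.70. Calls kept in all 10 such fits numbered 15 of 30 and 43 of 51 against control in heavy and light polysomes, 13 of 23 and 36 of 49 against siRNA-2, and 13 of 24 for heavy minus light. The alternative of averaging several clusters of a gene gave no value of its own, since each gene had 1 cluster. The heavy arrays spread more. With siRNA-1 the difference from control was also more negative in light than in heavy polysomes for 45 of the 56 genes. What made the heavy counts lower was not tested.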
